A study of Mus musculus with 160 samples.

Results

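*Gata3*-GFP+ hematopoietic cells (HCs) of E10.5 mouse embryos were compared with *Gata3*-GFP- HCs of the same stage. The members were the pools whose column headings gave CD41 or CD45 as present and GFP as present or absent, and they numbered 40 of the 160 pools of the series, 20 *Gata3*-GFP+ and 20 *Gata3*-GFP-. All 40 met the following limits of the study. Counts on genes plus ERCC spike-in RNAs had to exceed 500000, and genes had to take more than 20% of the reads. Mitochondrial genes and ERCC RNAs had each to take less than 20%. The study's further limit on the number of high coverage genes was not applied. All embryos were heterozygous for the *Gata3*-GFP allele, in which GFP reports *Gata3*, so both groups carry the same genotype and were parted only by the fluorescence of the sorted cells. The cells came from the aorta-gonads-mesonephros (AGM) region, treated with collagenase, stained for surface proteins and sorted in pools of 20 cells without culture or drug treatment. Endothelial cells (ECs) of the same embryonic stage were sorted by the same reporter, and mesenchymal and sympathetic cells were sorted a day later. The gate for HCs asks for CD41 or CD45 and not for a lineage, so a pool may mix several kinds of blood cell. Cells of several embryos were pooled and no heading ties a pool to a litter or embryo. Per the paper, cells of a few biological replicates were sorted by population and then sorted again into the pools. The p-values here thus measure the spread between pools, which may in part be technical, and not that between embryos or biological replicates.

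GATA3 is a zinc finger transcription factor of the GATA family, best known in blood for its role in T cells and innate lymphoid cells and outside blood for its role in sympathetic neurons, kidney ducts and skin. The AGM is the region in which blood stem cells first arise from endothelium lining the dorsal aorta. CD41, encoded by *Itga2b*, marks the earliest blood precursors and stays on megakaryocytes and platelets, whereas CD45, encoded by *Ptprc*, is carried by most other blood cells, including the macrophages that circulate or reside in tissue at this stage. The comparison therefore asks which lineages and pathways differ between HCs that have switched on the *Gata3* reporter and those that have not.

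Counts on genes per pool ranged from 1460179 to 16004756 in GFP+ HCs with a median of 3180193, and from 2010549 to 15700184 in GFP- HCs with a median of 3712267. The unit of level is CPM, a count brought to a common library total by TMM normalization over the 40 pools, with no correction for gene length. A gene entered the test, edgeR's quasi-likelihood test, when 5 or more pools held 10 or more of its counts. It could do so through the pools of either group alone, which leaves little room for a call in the other direction. A gene is said to have risen or fallen in GFP+ HCs when its Benjamini-Hochberg adjusted p was under 0.01 and its log2 fold change beyond 0.1. Reads were amplified without molecular identifiers, and a floor set by 3 counts in each pool covers counting error only. One GFP- pool had 4.62% of its reads on overlapping genes against up to 17.5% in the others, and the main counts were repeated without it.

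*Gata3* went with the labels in nearly every pool, whereas *Itga2b* and *Ptprc* overlapped more between the groups. *Gata3* had 11.7, 41.3 and 146 CPM in GFP+ pools (lowest, median and highest, here and in all such triplets) and 1.65, 6.59 and 12 CPM in GFP- pools. In 19 of 20 GFP+ pools it lay above every GFP- pool, and its log2 fold change, with its standard error (SE), was 2.89 (SE 0.26). *Itga2b*, on chromosome 11 from 102453297 to 102470122 of GRCm38, had 8.72, 224 and 1303 CPM in GFP+ pools and 0.572, 7.92 and 126 CPM in GFP- pools. It lay above every GFP- pool in 12 GFP+ pools, and its log2 fold change was 3.68 (SE 0.56), with an adjusted p of 1.4e-06 by edgeR. *Ptprc*, on chromosome 1 from 138062861 to 138175708, had 4.3, 197 and 328 CPM in GFP+ pools and 275, 405 and 607 CPM in GFP- pools. It fell by 1.09 on the log2 scale (adjusted p = 8.15e-05 by edgeR), and 17 GFP- pools lay above every GFP+ pool. GFP+ pool 15 stood apart with the lowest *Ptprc* and the highest *Itga2b* of all 40 pools (pool numbers follow the order of the headings and serve only as names). Fewer cells of a type and less RNA per cell cannot be told apart in pools, here and in all results that follow.

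The 2 sorting markers ran against each other within the GFP+ pools. On a scale of log2(CPM + 1), the correlation of *Itga2b* with *Ptprc* over the 20 GFP+ pools was r = −0.58 (permutation p = 0.0131, adjusted p = 0.0785 over 6 relations) and Spearman's rho = −0.73 (permutation p = 0.00044, adjusted p = 0.00264). Without the 2 pools farthest from the median of *Itga2b*, r was −0.72 over 18 pools. Over the 20 GFP- pools, r was −0.34 (permutation p = 0.136, adjusted p = 0.272) and rho −0.35. Within GFP+ pools, *Gata3* had r = 0.39 with *Itga2b* (permutation p = 0.0882) and r = −0.04 with *Ptprc* (permutation p = 0.847). Neither relation was clear over 20 pools, which does not show that none exists. All values of a pool share its library and depth. The gate takes cells with CD41 or CD45, so a cell without either marker had to carry the other. An inverse relation can thus be built in by the sort in part, which the permutation p-values do not take into account.

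Of 16200 genes tested, 2763 (17.1%) rose and 1544 (9.53%) fell in GFP+ HCs (2313 and 2362 by the scanpy test on scran-scaled counts), and the median log2 fold change over all of them was 0.05. Members of 42 lists of lineage markers and pathways are read against these 2 shares. Among the 6 largest rises of well detected genes were *Tfap2b*, a transcription factor of neural crest, kidney and skin, at 7.56 on the log2 scale, *Ppp2r2b*, a regulatory subunit of protein phosphatase 2A, at 6.63, *Adrb3*, the beta-3 adrenergic receptor, at 6.61, the platelet chemokine *Ppbp* at 6.55 and the collagen cross-linking enzyme *Loxl1* at 6.52. The largest falls among well detected genes were in genes of neutrophils and their precursors. They were *S100a9* at -7.08, *S100a8* at -6.91, the cystatin *Stfa1* at -6.28, myeloperoxidase *Mpo* at -5.00, proteinase *Prtn3* at -4.01 and the peptidoglycan receptor *Pglyrp1* at -3.93. *Stfa1* has near-identical paralogs that may share its reads, and *Mpo* and *Prtn3* share 15% and 9.18% of their exon bases with genes on the other strand, whose reads cannot be told apart without strand. *Pglyrp1* was no longer past the threshold without the 5 GFP- pools highest in granulocyte genes.

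**Figure D1:**
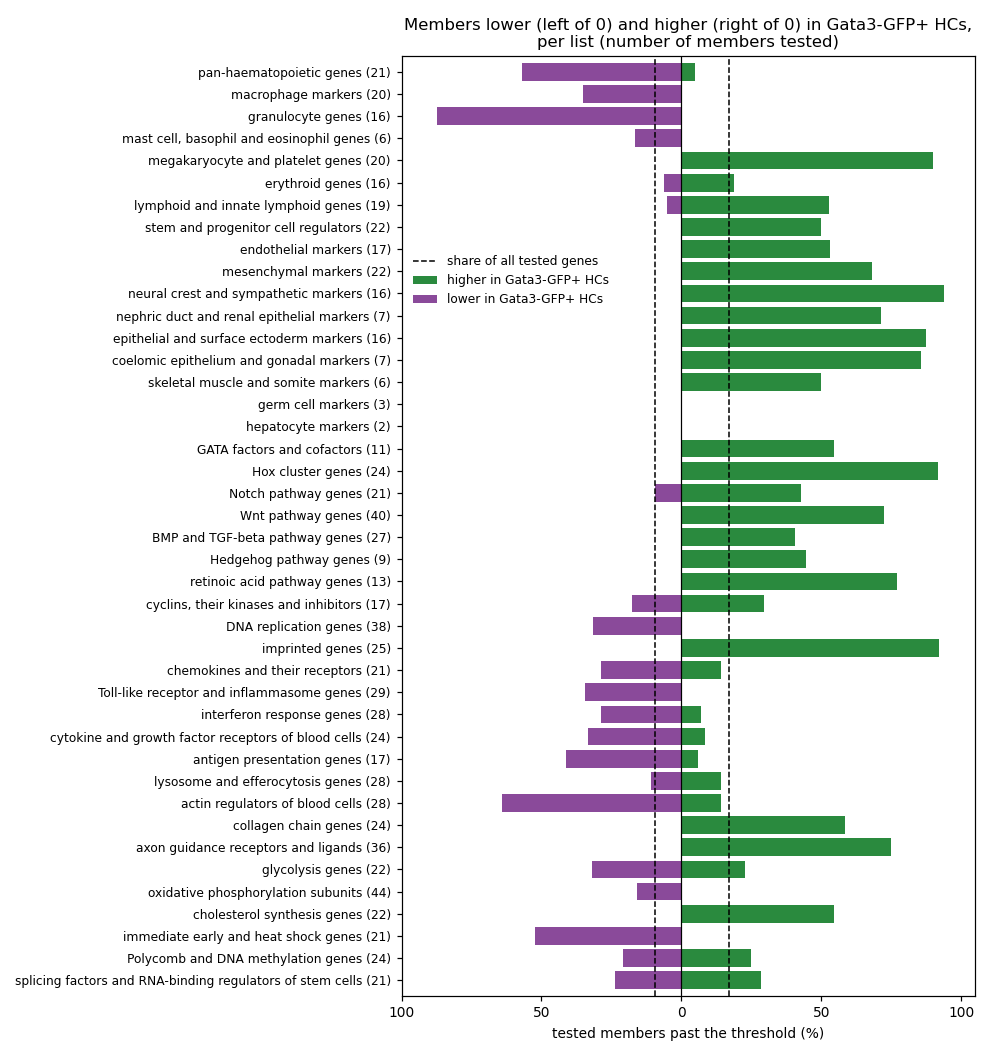
Share of the tested members of each list that were higher (bars to the right of 0) or lower (bars to the left) in Gata3-GFP+ than in Gata3-GFP- HCs, in percent, with the number of members tested beside each list name and dashed lines at the share of all tested genes (17.1% higher, 9.53% lower). Bars reach farthest to the right for neural crest, imprinted, Hox and megakaryocyte genes, and to the left for granulocyte genes, of which 14 of 16 were lower.

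Genes of megakaryocytes and platelets rose most evenly of the blood lineages. Of 20 members tested, 18 rose and 0 fell, with a median log2 fold change of 4.20 against 0.05 over all genes. The exceptions were *Fli1*, an ETS factor shared with endothelium, at 0.35, and *Selp*, the adhesion receptor P-selectin, at 2.60; both are named because they did not pass. The summed level of the list was 2175, 12388 and 68674 CPM in GFP+ pools and 463, 998 and 4851 CPM in GFP- pools. 16 of the 20 GFP+ pools lay above every GFP- pool, and GFP+ pools 1 and 2 were the lowest of their group. Leaving out the 5 GFP+ pools highest in these genes left 17 members higher with a median of 3.40, a choice made after seeing the data.

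*Ppbp* and *Pf4* encode chemokines stored in platelet granules and are neighbors on chromosome 5. *Ppbp* (ENSMUSG00000029372, from 90768518 to 90770063) had 64.0, 1596 and 11249 CPM in GFP+ pools and 1.33, 13.4 and 116 CPM in GFP- pools. It lay above every GFP- pool in 18 GFP+ pools, and its log2 fold change was 6.55 (SE 0.69), with an adjusted p of 1.39e-09 by edgeR. *Pf4* (ENSMUSG00000029373, from 90772435 to 90773383) had 1163, 5511 and 36970.5 CPM in GFP+ pools and 109, 478 and 3106 CPM in GFP- pools. Every GFP- pool thus held *Pf4* RNA too, and the groups overlapped, with 16 GFP+ pools above all GFP- pools and a log2 fold change of 3.82 (SE 0.42). *Tubb1*, the beta-tubulin of platelets, had 3.88, 168 and 835 CPM in GFP+ pools and 0, 1.18 and 18.9 CPM in GFP- pools and rose by 6.24 (SE 0.65). *Gp6*, the collagen receptor of platelets, had 0.485, 38.7 and 258 CPM in GFP+ pools and 0, 0.226 and 7.79 CPM in GFP- pools and rose by 6.20 (SE 0.69). Both were close to 0 in most GFP- pools and lay above all of them in 17 GFP+ pools. In GFP- pools 1 and 20, *Itga2b* and the summed list were the highest of their group, at up to 126 CPM and 4851 CPM, so platelet genes were not confined to GFP+ pools.

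**Figure D2:**
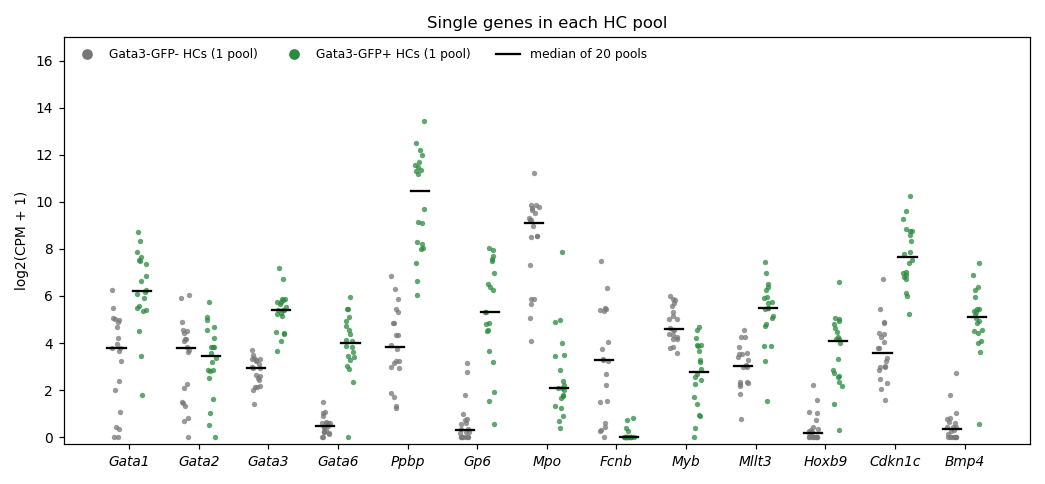
Level of 13 single genes as log2(CPM + 1) in each of the 20 Gata3-GFP+ (green) and 20 Gata3-GFP- (gray) HC pools, 1 point per pool, with a line at the median of each group. Ppbp reaches from 64.0 to 11249 CPM in GFP+ pools and stays at or under 116 CPM in GFP- pools, whereas the median of Mpo is higher in GFP- pools, at 549 against 3.20 CPM.

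The windows of 250 bases before the start of the 4 megakaryocyte genes with the largest rises are shown because GATA factors are the factors under study and GATA1 is known to drive such genes. They are from RefSeq on GRCm38.p6, 5′ to 3′ on the strand of the gene, with GATAA or its reverse complement TTATC in capitals.
Ppbp (chr5:90768268-90768517, plus strand): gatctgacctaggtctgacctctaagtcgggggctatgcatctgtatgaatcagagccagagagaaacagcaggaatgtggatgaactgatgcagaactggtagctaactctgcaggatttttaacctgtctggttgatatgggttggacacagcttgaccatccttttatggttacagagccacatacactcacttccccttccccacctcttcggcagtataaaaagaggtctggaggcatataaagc
Tubb1 (chr2:174450345-174450594, plus strand): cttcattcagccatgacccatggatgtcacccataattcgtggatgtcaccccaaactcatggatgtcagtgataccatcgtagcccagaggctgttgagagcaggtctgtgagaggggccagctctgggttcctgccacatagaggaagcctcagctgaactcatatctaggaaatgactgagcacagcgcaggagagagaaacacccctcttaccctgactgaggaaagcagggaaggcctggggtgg
Gp6 (chr7:4397745-4397994, minus strand): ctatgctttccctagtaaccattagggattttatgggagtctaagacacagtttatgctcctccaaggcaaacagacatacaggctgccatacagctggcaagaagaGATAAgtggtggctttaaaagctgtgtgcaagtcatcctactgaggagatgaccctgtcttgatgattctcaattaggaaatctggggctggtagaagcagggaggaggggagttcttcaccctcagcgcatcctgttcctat
Gp1ba (chr11:70638872-70639121, plus strand): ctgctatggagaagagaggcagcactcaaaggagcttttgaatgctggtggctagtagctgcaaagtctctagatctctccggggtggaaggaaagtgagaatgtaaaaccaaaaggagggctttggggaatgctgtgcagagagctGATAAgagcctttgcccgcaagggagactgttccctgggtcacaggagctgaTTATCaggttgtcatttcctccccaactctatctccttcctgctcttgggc
*Gp6* holds 1 match, 143 bases before the start, and *Gp1ba*, a chain of the von Willebrand factor receptor, holds 2, at 103 and 51 bases before the start. *Ppbp* and *Tubb1* hold none in these windows. Of the 20 genes of the list, 14 matched the promoter table, and 7 of them hold GATAA on either strand, against 23% of the 27025 genes of the table. These matches describe letters in a window and not binding.

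**Figure D3:**
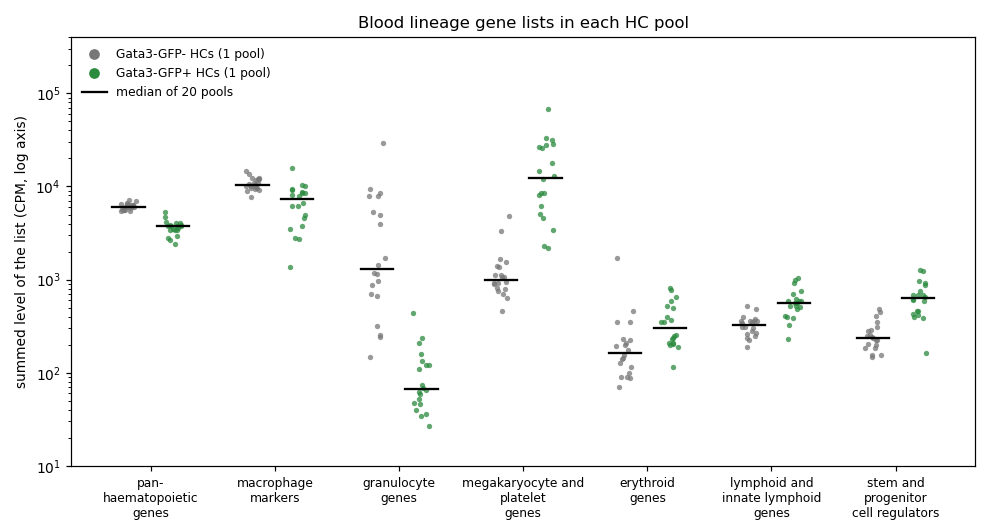
Summed CPM of blood lineage gene lists in each HC pool, on a log scale, with Gata3-GFP+ and Gata3-GFP- pools side by side and a line at each median. Megakaryocyte and platelet genes reach a median of 12388 CPM in GFP+ and 998 CPM in GFP- pools, and granulocyte genes a median of 67.1 CPM in GFP+ and 1308 CPM in GFP- pools.

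Granulocyte genes fell. Of 16 tested, 14 fell and 0 rose, with a median log2 fold change of -5.04. All 16 held 10 or more counts in 5 or more GFP- pools, and 7 in 5 or more GFP+ pools. Many thus entered the test through GFP- pools alone, where a rise could hardly be called. Their summed level was 26.9, 67.1 and 441 CPM in GFP+ pools and 147, 1308 and 29384 CPM in GFP- pools, and 16 GFP- pools lay above every GFP+ pool. GFP- pool 4 held the highest level. *Mpo*, the peroxidase of neutrophil granules, had 0.307, 3.20 and 233 CPM in GFP+ pools and 16, 549 and 2372 CPM in GFP- pools. It was low in all but a few GFP+ pools and above all of them in 14 GFP- pools, and it fell with a log2 fold change of -5.00 (SE 0.71) and an adjusted p of 4.13e-07 by edgeR. *S100a8* (chromosome 3 from 90668978 to 90670035) and *S100a9* (chromosome 3 from 90692632 to 90695721), which encode the 2 chains of calprotectin, were spread more widely. *S100a8* had 0, 9.09 and 103 CPM in GFP+ pools and 3.32, 135 and 14578 CPM in GFP- pools, and *S100a9* had 0.181, 4.96 and 42.4 CPM in GFP+ pools and 2.35, 26.8 and 9498 CPM in GFP- pools. A few GFP- pools therefore carried most of their RNA, and 10 GFP- pools lay above every GFP+ pool for *S100a8*. The receptor for G-CSF, *Csf3r*, fell by 1.65 on the log2 scale, and *Cxcr2*, a neutrophil chemokine receptor, by 2.26. Without the 5 GFP- pools highest in granulocyte genes, 12 of 15 tested members fell, with a median of -4.06. Of the 6 mast cell, basophil and eosinophil genes tested, 1 fell and 0 rose. The one that fell was *Hdc*, the enzyme that makes histamine, at -3.26, while the mast cell protease *Cpa3* had a value of 2.25 that did not pass.

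Macrophage markers were high in both groups. Their summed level was 1376, 7315 and 15617 CPM in GFP+ pools and 7622, 10460.1 and 14539.6 CPM in GFP- pools, and of 20 tested, 7 fell and 0 rose (median -0.41). *Lyz2*, lysozyme of myeloid cells, had 155, 481 and 1155 CPM in GFP+ pools and 655, 1275 and 4014 CPM in GFP- pools and fell by 1.53 on the log2 scale. *Itgam*, the chain CD11b of an adhesion receptor, had 0.921, 24.3 and 62.0 CPM in GFP+ pools and 32.1, 71.0 and 126 CPM in GFP- pools and fell by 1.5. 12 and 13 GFP- pools, in this order, lay above all GFP+ pools. *Adgre1*, which encodes the macrophage surface protein F4/80, had 2.76, 161 and 348 CPM in GFP+ pools and 92.2, 134 and 248 CPM in GFP- pools, with a log2 fold change of -0.04 (SE 0.26) and an adjusted p of 0.924 by edgeR. *Csf1r*, the receptor that macrophages need to survive, had a value of -0.76 and passed narrowly (adjusted p = 0.00938 by edgeR); it did not pass under 6 of the alternatives, and shares 15.1% of its exon bases with *Hmgxb3* on the other strand. GFP+ pools 1 and 2 had the highest macrophage sums of their group, 15617 and 10431 CPM, and the lowest megakaryocyte sums, 2323 and 2175 CPM. GFP+ pool 15 held the lowest macrophage sum and the highest megakaryocyte sum, 68674 CPM. Without the 5 GFP+ pools highest in markers of other cell types, 4 macrophage markers fell and 2 rose.

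**Figure D4:**
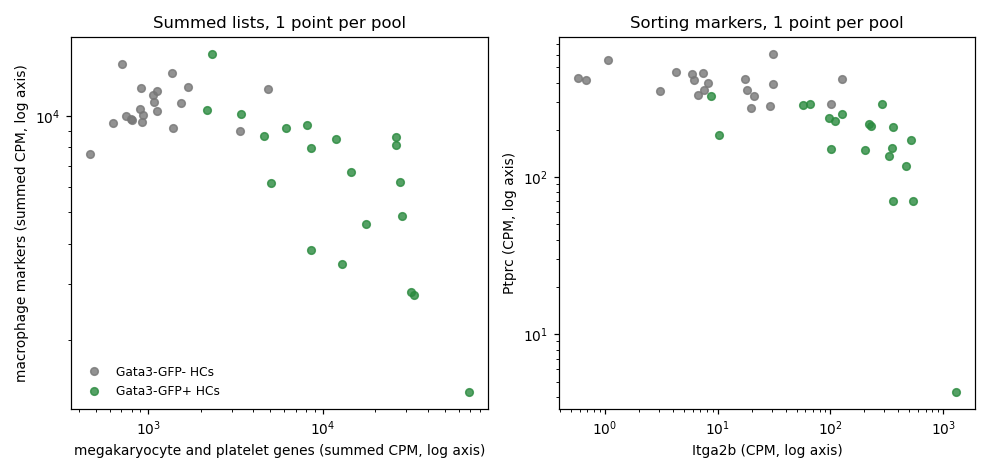
Each HC pool as 1 point, placed by its summed CPM of megakaryocyte and platelet genes (horizontal) and of macrophage markers (vertical) in the left panel and by its CPM of Itga2b and Ptprc in the right panel, all on log axes, with Gata3-GFP+ pools in green and Gata3-GFP- pools in gray. In the left panel, GFP- pools lie between 7622 and 14540 CPM of macrophage markers, and GFP+ pool 15 lies farthest from them at 1376 CPM.

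Genes shared by most blood cells were lower in GFP+ HCs, without overlap of their sum. It was 2401, 3742 and 5254 CPM in GFP+ pools and 5435, 6069 and 7163 CPM in GFP- pools, so that the highest GFP+ pool lay under the lowest GFP- pool. Of 21 members tested, 12 fell and 1 rose, the riser being *Itga2b*, and the median was -0.84. *Cd52*, a small surface glycoprotein of leukocytes, had 4.61, 142 and 354 CPM in GFP+ pools and 371, 452 and 613 CPM in GFP- pools. The groups did not overlap, and it fell by 1.64 on the log2 scale (adjusted p = 2.16e-06 by edgeR), with 14.5% of its exon bases shared with *Crybg2* on the other strand. *Myb*, a factor of progenitors that definitive blood needs, had 0, 5.91 and 24.9 CPM in GFP+ pools and 10.8, 23.5 and 63.8 CPM in GFP- pools and fell by 1.88. *Cd34*, a sialomucin of progenitors and vessels, had 7.99, 30.8 and 163 CPM in GFP+ pools and 22.2, 104.9 and 289 CPM in GFP- pools and fell by 1.28. For *Myb* and *Cd34* the groups overlapped, with 9 and 3 GFP- pools above all GFP+ pools. *Kit*, the receptor for stem cell factor, stood at 0.64 and did not pass (adjusted p = 0.261 by edgeR).

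Of 16 erythroid genes tested, 3 rose and 1 fell, shares near the 17.1% and 9.53% of all genes, with a median of 0.55. *Gata1*, the GATA factor of red cells, megakaryocytes and mast cells, had 2.42, 72.5 and 419 CPM in GFP+ pools and 0, 12.8 and 76.1 CPM in GFP- pools, with a log2 fold change of 2.75 (SE 0.53) and an adjusted p of 6.74e-05 by edgeR. *Epor*, the erythropoietin receptor, had 6.65, 32.0 and 139 CPM in GFP+ pools and 0.286, 8.47 and 19.3 CPM in GFP- pools and rose by 2.40 (SE 0.36). *Gata1* lay above every GFP- pool in 9 GFP+ pools and *Epor* in 15. *Epb42*, a membrane protein of red cells, stood at 3.40 and *Klf1*, the factor that switches on adult globin, at -3.03. Neither of these calls held without the 5 GFP+ pools highest in megakaryocyte genes. The summed erythroid level was 115, 300.1 and 820.1 CPM in GFP+ pools and 70.4, 165 and 1689.8 CPM in GFP- pools, and no globin gene passed in either direction.

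Of 19 lymphoid genes tested, 10 rose and 1 fell, with a median of 1.6, and their summed level was 232, 558 and 1046 CPM in GFP+ pools and 190.2, 324 and 519 CPM in GFP- pools. Without the 5 GFP+ pools highest in markers of other cell types, 7 of 17 rose. Normalized over all populations, the median sum was 591 CPM in GFP+ HCs and higher in cells outside blood, at 708 CPM in GFP+ ECs, 877 CPM in GFP+ mesenchymal cells and 1037 CPM in GFP+ sympathetic cells; the part of such cells in these rises was not tested. *Lef1*, a partner of beta-catenin in lymphocytes and many embryonic tissues, had 0.485, 6.14 and 23.1 CPM in GFP+ pools and 0, 0.306 and 4.26 CPM in GFP- pools and rose by 3.56 (SE 0.55), with 13.7% of its exon bases shared with a gene on the other strand. *Zap70*, a kinase of T cell receptor signaling, rose by 4.24, and *Cd3g*, a chain of the T cell receptor complex, by 4.23, both called by edgeR and not by the scanpy test. *Il7r*, the receptor for interleukin 7, stood at 0.78 and *Flt3*, a receptor of early lymphoid and myeloid progenitors, at -0.60, and neither passed. The single member that fell, the B cell receptor chain *Cd79b* at -0.77, kept no call without any of the 4 sets of pools left out.

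Regulators of stem and progenitor cells included 11 that rose and 0 that fell of 22 tested, with a median of 1.56. Their sum was 164, 634 and 1277 CPM in GFP+ pools and 149, 238 and 479.7 CPM in GFP- pools. In ECs, 17 of 21 tested members rose. Normalized over all populations, the median sum was 657 CPM in GFP+ HCs and 1999 CPM in GFP+ ECs. It was 568 CPM in GFP+ mesenchymal and 313 CPM in GFP+ sympathetic cells. The part of cells outside blood in these rises was not tested. *Myct1*, a direct target of MYC that is expressed in stem cells and endothelium, had 2.42, 31.2 and 221 CPM in GFP+ pools and 0.347, 1.77 and 16.3 CPM in GFP- pools. It lay above all GFP- pools in 15 GFP+ pools, with a log2 fold change of 4.28 (SE 0.49) and an adjusted p of 6.85e-09 by edgeR. *Mycn*, a MYC family factor of embryonic progenitors, had 4.61, 24.0 and 58.9 CPM in GFP+ pools and 0, 0.581 and 10.3 CPM in GFP- pools and rose by 3.12 (SE 0.52). *Hoxa10*, a homeobox factor of immature blood, had 0.307, 10.3 and 34.9 CPM in GFP+ pools and 0, 0.212 and 6.80 CPM in GFP- pools and rose by 3.36 (SE 0.68). These 3 were near the floor in many GFP- pools. *Procr*, a receptor for protein C used to sort stem cells, rose by 2.19 and lost its call under 4 alternatives, and *Hlf*, a factor of early stem cells, stood at 1.63 without passing. Only 7 members rose without the 5 GFP+ pools highest in megakaryocyte genes, and 7 without the 5 GFP- pools highest in granulocyte genes.

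The GATA family was uneven. *Gata3* and *Gata1* rose as given above, whereas *Gata2*, which blood stem cells require, had 0, 10.1 and 52.9 CPM in GFP+ pools and 0, 12.7 and 65.1 CPM in GFP- pools, a log2 fold change of -0.19 (SE 0.52) and an adjusted p of 0.805 by edgeR. *Gata6*, a factor of heart, gut and mesenchyme, had 0, 14.8 and 61.4 CPM in GFP+ pools and 0, 0.368 and 1.79 CPM in GFP- pools. It lay above every GFP- pool in 19 GFP+ pools and rose by 5.47 (SE 0.46). *Gata5*, known from heart and gut, had 0, 2.25 and 20.7 CPM in GFP+ pools and 0 counts in all GFP- pools. Set against a floor of 3 counts in each GFP- pool, its mean was at least 6.11-fold higher. Of its exon bases, 7.87% are shared with its antisense gene. *Gata4* had 0, 0.129 and 12.1 CPM in GFP+ pools and 0, 0 and 0.492 CPM in GFP- pools and passed by edgeR at 4.11, but not by the scanpy test. *Zfpm1*, the cofactor FOG1 that GATA1 needs in megakaryocytes and a gene chosen after its values were seen, had 1.45, 18.9 and 75.8 CPM in GFP+ pools and 0, 3.74 and 22.9 CPM in GFP- pools and rose by 1.86 (SE 0.45). Of 11 GATA factors and cofactors, 6 rose (54.5%, against 17.1% of all tested genes) and 0 fell. The 6 include *Gata3*, whose reporter parted the groups. Of the list, 7 members held 10 or more counts in 5 or more GFP- pools. The others had little room for a called fall.

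Markers of cells outside blood also rose, and they differed widely among GFP+ pools. Of 22 mesenchymal markers tested, 15 rose, of 16 neural crest and sympathetic markers 15, of 16 epithelial markers 14, of 17 endothelial markers 9, of 7 nephric markers 5, of 7 coelomic markers 6 and of 6 skeletal muscle markers 3. None of these lists had a member that fell, but many members entered the test through GFP+ pools alone. Members with 10 or more counts in 5 or more GFP- pools were 5 neural crest, 2 epithelial, 0 nephric and 2 coelomic markers. For mesenchymal and endothelial markers they were 12 and 16. Of the 3 germ cell markers and 2 hepatocyte markers tested, 0 passed by edgeR, DESeq2 or scanpy, and 1, *Nanos3*, had an unadjusted p under 0.05. The mesenchymal sum was 34.9, 551 and 1810.2 CPM in GFP+ pools and 15.6, 66.0 and 182 CPM in GFP- pools, and the neural crest and sympathetic sum 8.82, 204 and 3305 CPM and 4.27, 17.4 and 42.6 CPM. In both, 19 GFP+ pools lay above all GFP- pools. GFP+ pools 20 and 17 had the highest neural sums, 3305 and 1600 CPM.

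Single members showed the same unevenness. *Th*, the first enzyme of catecholamine synthesis, had 0, 1.53 and 407 CPM in GFP+ pools and 0, 0.143 and 1.07 CPM in GFP- pools and rose by 7.40 (SE 1.07). Its median in GFP+ pools lay far under the highest pool. *Epcam*, an epithelial adhesion protein, had 0, 4.43 and 54.7 CPM in GFP+ pools and 0, 0 and 2.0 CPM in GFP- pools and *Ret*, the receptor for GDNF in nephric duct and neurons, had 0, 0.989 and 273 CPM in GFP+ pools and 0, 0 and 0.572 CPM in GFP- pools. *Pdgfrb*, a growth factor receptor of mesenchyme and pericytes, had 2.42, 16 and 57.9 CPM in GFP+ pools and 0, 1.71 and 16.6 CPM in GFP- pools, a log2 fold change of 2.43 (SE 0.53) and 10 GFP+ pools above all GFP- pools. *Esam*, an adhesion protein that endothelium shares with platelets and stem cells, had 5.33, 55.5 and 306 CPM in GFP+ pools and 0.820, 2.90 and 19.7 CPM in GFP- pools and rose by 4.16 (SE 0.45). *Cdh5*, which encodes VE-cadherin, had 3.96, 8.88 and 28.1 CPM in GFP+ pools and 1.19, 3.79 and 9.10 CPM in GFP- pools and rose by 1.38 (SE 0.27). Set on one scale over all 8 populations, the median endothelial sum was 349 CPM in GFP+ HCs and 16712 CPM in GFP+ ECs, the mesenchymal sum 587 CPM in GFP+ HCs and 10907 CPM in GFP+ mesenchymal cells, and the neural sum 218 CPM in GFP+ HCs and 2717 CPM in GFP+ sympathetic cells. The 5 GFP+ pools highest in markers of other cell types were chosen by a joint sum. It held the mesenchymal, neural crest, nephric, epithelial, coelomic and skeletal muscle lists. Without these pools, 6 of 10 tested neural crest, 14 of 22 mesenchymal and 12 of 14 epithelial markers rose. So did 2 of 4 nephric and 3 of 5 coelomic markers. Of endothelial markers, which were not in that sum, 9 of 17 rose. GFP+ pools 4 and 15, highest in epithelial (583 CPM) and endothelial (800 CPM) markers in this order, were kept. The part of these other cell types in the pathway results that follow was not tested.

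**Figure D5:**
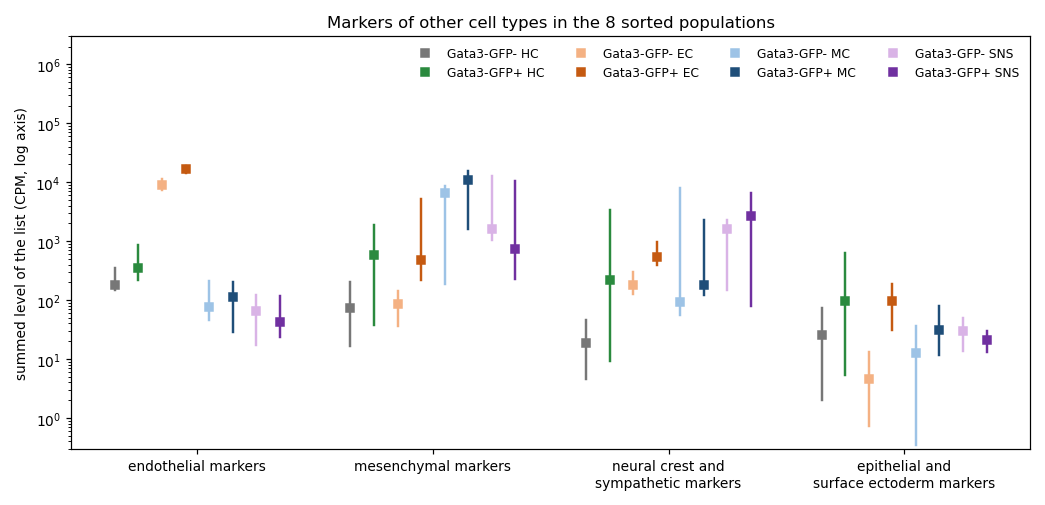
Summed CPM, on a log axis, of 4 marker lists of cell types outside blood in the 8 sorted populations, with a square at the median over pools and a line from the lowest to the highest pool; levels are normalized over all 153 passing pools. Gata3-GFP+ HCs lie above Gata3-GFP- HCs in the median of each list and far under Gata3-GFP+ ECs in endothelial markers (349 against 16712 CPM).

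Genes that give embryonic cells their position and growth rose alongside. Hox genes encode homeobox factors laid out along the body axis, and of 24 tested, 22 rose and 0 fell, with a median of 3.23. Of the list, 23 members held 10 or more counts in 5 or more GFP+ pools, and 3 in 5 or more GFP- pools. Most thus entered the test through GFP+ pools alone, which all but fixes the direction of their calls. Their sum was 17.9, 164 and 428 CPM in GFP+ pools and 0.912, 14.6 and 82.4 CPM in GFP- pools. *Hoxb9*, a gene of trunk position, had 0.246, 16.1 and 96.9 CPM in GFP+ pools and 0, 0.143 and 3.58 CPM in GFP- pools and rose by 5.45 (SE 0.64). Without the 5 pools highest in markers of other cell types, 14 of 20 Hox genes rose. Imprinted genes are expressed from one parental copy, many of them in growing embryonic tissue, and of 25 tested, 23 rose and 0 fell, with a median of 2.83 and sums of 600.0, 2799.9 and 5743 CPM in GFP+ pools and 164, 435 and 942 CPM in GFP- pools. *H19*, a growth-restraining noncoding RNA, had 85.8, 363 and 495 CPM in GFP+ pools and 21.4, 51.0 and 156 CPM in GFP- pools and rose by 2.27 (SE 0.23), above all GFP- pools in 19 GFP+ pools. *Igf2*, its neighbor that encodes a growth factor, had 85.3, 481 and 915 CPM in GFP+ pools and 19.5, 81.5 and 200.1 CPM in GFP- pools and rose by 2.28 (SE 0.25). *Cdkn1c*, which encodes the cell cycle inhibitor p57, had 36.8, 202 and 1202 CPM in GFP+ pools and 2.01, 10.9 and 104.6 CPM in GFP- pools and rose by 4.11 (SE 0.46). *Magel2* had 0 counts in all GFP- pools and was at least 2.46-fold higher by the floor of 3 counts in each GFP- pool.

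Genes of signaling pathways rose in differing shares. Wnt proteins act through Frizzled receptors and beta-catenin, and of 40 members tested, 29 rose and 0 fell, with a median of 2.79. Of the list, 39 members held 10 or more counts in 5 or more GFP+ pools, and 18 in 5 or more GFP- pools. Many thus entered the test through GFP+ pools alone, where a fall could hardly be called. Of the ligands, *Wnt2* had 0.485, 25.4 and 75.8 CPM in GFP+ pools and 0, 0.293 and 2.51 CPM in GFP- pools and rose by 5.57 (SE 0.58), and *Wnt7b*, with 6.61% of its exon bases shared with a gene on the other strand, had 0, 0.576 and 24.9 CPM in GFP+ pools and 0, 0 and 0.347 CPM in GFP- pools. *Wnt7a* had 0 counts in all GFP- pools and was at least 4.69-fold higher. *Axin2*, a target that feeds back on the pathway, had 0.969, 3.84 and 7.93 CPM in GFP+ pools and 0, 0 and 3.72 CPM in GFP- pools and rose by 2.99 (SE 0.63), while *Ctnnb1*, which encodes beta-catenin, rose by 0.69 and shares 14.6% of its exon bases with *Ulk4* on the other strand. For retinoic acid, the vitamin A signal, 10 of 13 rose and 0 fell. They included the synthetic enzyme *Aldh1a2* at 3.43, the retinol-binding receptor *Stra6* at 6.18, the carrier *Crabp1* at 3.52 and the receptor *Rarb* at 3.89, which shares 34.1% of its exon bases with *Top2b* on the other strand.

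BMP and TGF-beta genes had 11 rises and 0 falls among 27, with the ligand *Bmp4* at 0.485, 34.0 and 170.4 CPM in GFP+ pools and 0, 0.278 and 5.55 CPM in GFP- pools and a log2 fold change of 6.21 (SE 0.54). *Id4*, a target that blocks helix-loop-helix factors, rose by 5.72, and the ligand *Tgfb1* stood at 0.51 without passing. In the Notch pathway, in which cell surface ligands trigger the release of a receptor fragment, 9 of 21 rose and 2 fell. These are 42.9% and 9.52%, against 17.1% and 9.53% of all tested genes. The share that fell was thus near that of all genes. The Delta-like genes *Dll3* at 6.70 and *Dll1* at 3.25 and the targets *Hey2* at 3.42 and *Hes1* at 2.45 rose. The nuclear partner *Rbpj* fell by 0.66 and the glycosyltransferase *Mfng* by 0.72 (not called under 5 alternatives). The receptor *Notch1* had a value of -0.42 that did not pass. For Hedgehog, 4 of 9 rose, among them the coreceptor *Gas1* at 4.34 and the effectors *Gli3* at 2.72 and *Gli2* at 2.61, and the receptor and target *Ptch1* stood at 0.36 without passing. Axon guidance receptors and ligands rose in 27 of 36 cases, and their sum did not overlap between the groups, at 517, 716 and 1396 CPM in GFP+ pools and 239, 367 and 499 CPM in GFP- pools. *Robo1*, a receptor for Slit proteins, had 0.485, 17 and 43.2 CPM in GFP+ pools and 0, 0.589 and 4.57 CPM in GFP- pools and rose by 4.13 (SE 0.47), and *Ephb4*, an ephrin receptor of veins and progenitors, rose by 2.43. Collagen chains rose in 14 of 24 cases and fell in 0, with *Col5a1* at 3.41 and the basement membrane chain *Col4a1* at 1.66. Members with 10 or more counts in 5 or more GFP- pools were 20 axon guidance and 15 collagen genes. In GFP+ pools they were 34 and 21. The members short of this in GFP- pools had little room for a called fall.

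Among innate immune genes, part of each list fell. Of 29 Toll-like receptor and inflammasome genes, which sense microbes and set off inflammation, 10 fell and 0 rose, with a median of -0.80. The sum was 157, 657 and 1141 CPM in GFP+ pools and 837, 1264 and 1547 CPM in GFP- pools, and 16 GFP+ pools lay under every GFP- pool. *Tlr2*, a receptor for bacterial lipoproteins, had 2.45, 32.0 and 68.1 CPM in GFP+ pools and 30.4, 65.6 and 122 CPM in GFP- pools and fell by 1.19 on the log2 scale, and *Clec7a*, a receptor for fungal glucan, had 0, 20.9 and 108 CPM in GFP+ pools and 50.9, 89.6 and 142 CPM in GFP- pools and fell by 1.59. *Tnfaip3*, which restrains this pathway, fell by 1.67, and the inflammasome gene *Nlrp3* stood at -1.21 without passing. Interferon response genes fell in 8 of 28 cases and rose in 2 (28.6% and 7.14%, against 9.53% and 17.1% of all tested genes). They included the receptor chain *Ifngr1* at -1.29, the factor *Irf9* at -0.98 and the exonuclease *Isg20*, which rose, at 3.36. *Irf7* at -0.23 did not pass. Chemokines and their receptors fell in 6 of 21 cases and rose in 3 (28.6% and 14.3%, against 9.53% and 17.1% of all tested genes). Only 2 fell without the 5 GFP+ pools highest in markers of other cell types. *Ccl3*, a macrophage chemokine, fell by 1.51, and *Ackr3*, a scavenging receptor, rose by 3.60, while *Cxcr4*, the receptor that guides progenitors, stood at -1.16 without passing.

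Receptors for blood cytokines fell more often than they rose. Of 24, 2 rose and 8 fell (8.33% and 33.3%, against 17.1% and 9.53% of all tested genes). *Epor* was among the risers, while *Csf2rb*, the shared chain of the receptors for GM-CSF, interleukin 3 and interleukin 5, fell by 1.72, *Csf3r* by 1.65, *Il17ra* by 1.59 and *Il6ra* by 1.17. Antigen presentation genes fell in 7 of 17 cases, with *B2m*, the invariant chain of MHC class I, at -0.78 and the proteasome subunit *Psmb8* at -0.97, and the 1 riser was *H2-Q7* at 2.31, whose MHC class I paralogs may share its reads and which the scanpy test did not call. Actin regulators of blood cells fell in 18 of 28 cases and rose in 4 (64.3% and 14.3%, against 9.53% and 17.1%). *Myo1g*, a blood-specific myosin, had 1.23, 26.2 and 83.8 CPM in GFP+ pools and 53.1, 96.3 and 174 CPM in GFP- pools and fell by 1.74 on the log2 scale (adjusted p = 4.03e-08 by edgeR), with 16 GFP- pools above all GFP+ pools, and *Fermt3*, the kindlin that activates integrins in platelets and leukocytes, rose by 1.41. Lysosome and efferocytosis genes passed in shares near those of all genes, with 4 higher and 3 lower of 28 and a median of -0.03. Among them, *Laptm4a* rose by 0.79 and the membrane protein *Lamp1* stood at 0.04 without passing.

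Cell cycle genes went both ways. Of 17 cyclins, kinases and inhibitors, 5 rose and 3 fell (29.4% and 17.6%, against 17.1% and 9.53% of all tested genes). Inhibitors led the rises, with *Cdkn1c* as given above and *Cdkn2d*, which blocks CDK4 and CDK6, at 22.3, 137 and 675 CPM in GFP+ pools and 11.3, 31.5 and 84.5 CPM in GFP- pools and a log2 fold change of 2.24 (SE 0.31). *Ccnd3*, a D-type cyclin of blood cells, rose by 0.97, and *Cdk6*, its kinase partner, had 23.3, 82.4 and 245 CPM in GFP+ pools and 104, 182.5 and 294 CPM in GFP- pools and fell by 1.12 on the log2 scale. Falls of *Ccnb2* and *Cdk1*, both of mitosis, were small, at -0.49 and -0.44, and *Ccnb2* was not called under 3 alternatives and *Cdk1* under 7, with values between -0.51 and -0.38. DNA replication genes fell in 12 of 38 cases and rose in 0, with a median of -0.39, led by *Orc1* at -1.13, *Cdt1* at -0.94 and *Mcm5* at -0.86, which load or form the replicative helicase. The count that fell moved from 7 with ERCC size factors to 22 by the scanpy test. *Mcm2* and *Pcna* stood at -0.39 and -0.33 without passing.

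Metabolic genes moved in both directions. Of 22 glycolysis genes, 5 rose and 7 fell (22.7% and 31.8%, against 17.1% and 9.53% of all tested genes). The share that rose was thus near that of all genes. Of the hexokinases that commit glucose to the pathway, *Hk1* rose by 1.5, *Hk2* fell by 1.38 and *Hk3* by 0.95 (not called under 5 alternatives), and the glucose transporter *Slc2a3* and the lactate dehydrogenase chain *Ldhb* rose by 2.18 and 2.27. Oxidative phosphorylation subunits fell in 7 of 44 cases (15.9%, against 9.53% of all tested genes), with a median of -0.13. The count that fell moved from 1 with ERCC size factors to 18 by the scanpy test. Cholesterol synthesis genes rose in 12 of 22 cases and fell in 0, with a median of 0.82. Immediate early and heat shock genes, which respond to handling and stress, fell in 11 of 21 cases and rose in 0. *Fos* had 16.9, 101 and 359 CPM in GFP+ pools and 117, 300.1 and 693 CPM in GFP- pools and fell by 1.52 on the log2 scale, and 16 GFP+ pools had a lower sum of the list than any GFP- pool.

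Chromatin and RNA regulators were divided. Of 24 Polycomb and DNA methylation genes, 6 rose and 5 fell (25% and 20.8%, against 17.1% and 9.53% of all tested genes). *Cbx2*, a Polycomb reader, had 0.969, 15.3 and 52.6 CPM in GFP+ pools and 0, 2.38 and 14.6 CPM in GFP- pools and rose by 2.17 (SE 0.44), and *Tet1*, which oxidizes methylated cytosine, had 0.737, 16 and 56.4 CPM in GFP+ pools and 0, 3.82 and 10.4 CPM in GFP- pools and rose by 2.14 (SE 0.45). *Uhrf1*, which guides maintenance methylation, fell by 0.77, the core subunit *Suz12* by 0.67, and *Ezh2*, the methyltransferase, stood at 0.23 without passing. Of 21 RNA-binding regulators, 6 rose and 5 fell (28.6% and 23.8%). The neural and progenitor factor *Msi1* rose by 2.83, *Msi2*, its relative in blood stem cells, by 1.41 and the splicing factor *Rbfox2* by 2.83, while the fetal regulator *Lin28b* stood at -0.52 without passing and *Arid3a*, a factor of the fetal B cell program, fell by 1.0.

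Complete separation of the 40 pools was rare. For 6 genes (0.037% of those tested) every GFP+ pool lay above every GFP- pool, and for 8 genes (0.0494%) below. These 14 are named for that reason, after their values were seen. The 6 were *Parva*, an integrin-linked adapter, *Loxl1*, *Tmem98*, *Bex2*, *Bex3* and the imprinted gene *Peg10*. *Parva* had 9.33, 39.4 and 100.3 CPM in GFP+ pools and 0, 3.32 and 7.78 CPM in GFP- pools, with a log2 fold change of 3.92 (SE 0.41), and *Peg10* had 7.37, 20.8 and 59.8 CPM in GFP+ pools and 0.183, 2.16 and 6.94 CPM in GFP- pools and 3.17 (SE 0.38). The 8 were *Cd52*, *Cybb*, *C1qbp*, *Emb*, *Pabpc1*, *Ly6e*, *Rpl14* and *Clec5a*. *Cybb*, the catalytic chain of the phagocyte oxidase, had 2.46, 44.8 and 97.1 CPM in GFP+ pools and 117, 174 and 265 CPM in GFP- pools and fell with -1.92 (SE 0.23), *Clec5a*, a myeloid receptor, had 0.307, 3.93 and 15 CPM in GFP+ pools and 18.4, 46.5 and 84.3 CPM in GFP- pools, and *Rpl14*, a ribosomal protein, had 415, 559 and 636 CPM in GFP+ pools and 652, 729.7 and 915 CPM in GFP- pools, a log2 fold change of -0.43 (SE 0.04).

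The change with the reporter was next set against that in ECs, from 39 EC pools that share no sample with the HCs. A fit of the 4 E10.5 populations gave the difference of the 2 changes, HC minus EC, for 17851 genes, with 2524 (14.1%) positive and 1536 (8.6%) negative at an adjusted p under 0.01 by edgeR. With ERCC size factors 5241 were positive and 519 negative, and the median difference over all genes moved from 0.11 to 0.75, so the signs of small differences depend on the scaling. In ECs, 19.5% of tested genes rose and 16.5% fell. Of the megakaryocyte genes, 15 had a positive difference and 0 a negative one. *Ppbp* changed by 6.55 in HCs, with a difference of 6.80 (SE 0.77, adjusted p = 2.13e-11 by edgeR). *Gata3* itself rose in both, with a value of 2.66 in ECs and a difference of 0.21 that did not pass (adjusted p = 0.65 by edgeR). Imprinted genes had 17 positive and 0 negative differences, and Hox genes 10 and 0. Cell division and energy genes went the same way, with 17 DNA replication, 24 oxidative phosphorylation and 13 cholesterol genes positive and 0 negative. In ECs, 31 of 38 replication and 37 of 44 oxidative phosphorylation genes fell, against 12 and 7 in HCs, counts that move with the scaling as given above. The pan-hematopoietic and interferon lists went the other way, with 12 and 15 of their members negative (9 and 6 with ERCC size factors). In ECs, 10 of 19 pan-hematopoietic genes rose, against 1 of 21 in HCs. There were 433 genes that passed in opposite directions in the 2 cell types.

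The amount of RNA and the number of genes seen were compared last. RNA on genes per ERCC RNA was 6.77 ± 0.434 on the log2 scale in GFP+ pools and 6.80 ± 0.319 in GFP- pools (mean ± SD, 20 pools each), which differ by −0.03 (p = 0.784 by a two-sided permutation test of 100000 resamples). After thinning each pool to 1460179 counts, GFP+ pools held 15969, 16896.5 and 17395 genes with at least 1 count and GFP- pools 15160, 16038.5 and 16950. The groups overlapped, and GFP+ pools held 805 genes more on average (permutation p = 1e-05, the smallest these can give). With detection at 10 counts the difference was 640.5 genes (permutation p = 1e-05), and without thinning it was 233 genes (permutation p = 0.45).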

How the data were processed

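The deposited table holds raw counts per gene, which the authors made without normalization or filtering for 160 pools. Per the paper's text, reads of Smart-seq2 libraries were aligned with STAR to Ensembl release 81 and counted with HTSeq, whereas the submitters' processing notes name GSNAP, HTSeq 0.5.3p3 and mm10, so which aligner made these counts is not settled here. The strand setting is not given in the sources used here. The table held 46078 genes and 92 ERCC RNAs, lines for reads on no gene stayed out of library sizes, and no pool was identical to another.

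edgeR 4.0.16 in R 4.3.3 was used with TMM normalization, robust quasi-likelihood fits and Benjamini-Hochberg adjustment on genes for which 5 or more of the pools held 10 or more counts. The 40 HC pools were fitted alone, and the 4 E10.5 populations together gave the HC minus EC difference. For 1 value per pool, two-sided permutation tests were used, and correlations on log2(CPM + 1) had permutation p-values. Positions and shared exon bases came from GENCODE release M21 (GRCm38), and promoter windows from RefSeq. Python 3.11.15 with pandas 2.3.3, numpy 2.4.6, scipy 1.17.1 and matplotlib 3.10.9 handled tables and figures. The edgeR, DESeq2 and interaction steps were tested on simulated data.

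The members and the 42 gene lists were chosen with earlier results of these data known. Named genes were *Gata3*, *Ptprc* and *Itga2b*, the 6 largest rises and 6 largest falls among genes for which 75% of the higher group's pools held 10 or more counts, 2 anchor genes and up to 3 rises and 3 falls of each list, and the 3 most positive and 3 most negative HC minus EC differences among genes with opposite changes. Some genes that this rule names are not reported here. Genes named beyond this are said to be so, or belong to the 4 promoters shown, the largest rises of their list. Alternatives were DESeq2, ERCC and scran 1.30.0 size factors, no filter, a stricter filter, DESeq2 1.42.0's Wald test, scanpy 1.11.5's t-test with overestimated variance, one fit of the 4 E10.5 populations and other thresholds. Leaving out 4 sets of pools was added after seeing the data. Gene set tests and the E11.5 contrasts were not run.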

Additional observations from a re-analysis of the deposited data

Results flagged for a closer look

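For 6 genes the change with the reporter in HCs was opposite to that in ECs, and the difference, HC minus EC, passed the test of the difference itself in the fit of the 4 E10.5 populations by edgeR. They are the 3 most positive and the 3 most negative among well detected genes with opposite calls, chosen for those calls, which all but fix the outcome of the test, and levels here are median CPM normalized over all passing pools. *Bmp4*, a ligand that ventral tissue sends to the forming blood, differed by 8.30 (standard error 0.68, adjusted p = 4.24e-17 by edgeR), with a change of 6.21 in HCs and −2.09 in ECs. Its medians were 36.2 CPM in GFP+ and 0.304 in GFP- HCs, and 6.47 in GFP+ and 54.4 in GFP- ECs. *Apold1*, an endothelial early response gene, differed by 7.28 (5.14 in HCs, −2.11 in ECs), and *Nr2f2*, the factor COUP-TFII of veins and mesenchyme, by 7.15 (3.63 in HCs, −3.51 in ECs). *Nr2f2* had medians of 53.0 and 2.32 CPM in GFP+ and GFP- HCs and of 11.4 and 194 CPM in GFP+ and GFP- ECs. The highest of these 4 levels thus lay in GFP- ECs for both *Bmp4* and *Nr2f2*.

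In the other direction, *Emb*, an immunoglobulin-family surface protein, differed by −6.17 (standard error 0.30, adjusted p = 1.78e-29 by edgeR). Its medians were 108 and 396 CPM in GFP+ and GFP- HCs and 219 and 8.17 CPM in GFP+ and GFP- ECs, and a gene on the other strand covers 9.93% of its exon bases. *Gria3*, a glutamate receptor subunit, differed by −6.12 (−2.31 in HCs, 3.78 in ECs), and *Nupr1*, a stress-induced nuclear protein, by −5.25 (−1.20 in HCs, 4.03 in ECs). The 6 differences kept their sign and passed with DESeq2 and ERCC size factors, without a filter, with the stricter filter and by the DESeq2 Wald test.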

How the results depend on the processing

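The count of lower genes was 1544 and moved to 948 with ERCC size factors, 2362 by the scanpy test, 2378 at an adjusted p under 0.05 and 360 at a log2 fold change beyond 1. The count of higher genes was 2763 and moved to 1827 with the stricter filter, which tests fewer genes, while both counts stayed within 1.5 times under the other alternatives. The cause of the changes with the tool and the scaling was not tested. The 4060 HC minus EC differences ranged from 3698 to 5885. The surplus of 805 genes detected in GFP+ pools at equal depth was 233 without thinning (permutation p = 0.45). Of 220 named genes tested, 171 stayed on the same side of the threshold in all alternatives run for them, 49 did not in at least 1, and 0 reversed. No paired analysis was possible because the column headers carry no pool numbers. With 20 pools a group, falls of genes near 1 count per pool could not be tested, and a pool of 20 cells cannot show which cells share a program.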

Other observations

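Summed levels of the blood and embryonic lists were also read in ECs, normalized over all 153 passing pools and with no test. The median sum of megakaryocyte and platelet genes was 13258 CPM in GFP+ HCs, 1078 CPM in GFP- HCs, 1835 CPM in GFP+ ECs and 554 CPM in GFP- ECs. For imprinted genes it was 3058 and 474 CPM in GFP+ and GFP- HCs and 18069 and 8098 CPM in GFP+ and GFP- ECs. For Hox genes it was 179 and 15.8 CPM in HCs and 362 and 182.5 CPM in ECs, in the same order. The macrophage sum was 110.3 CPM in GFP+ ECs and 134 CPM in GFP- ECs, and 7863 and 11249 CPM in the HC groups.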
